A study of Mus musculus with 8 samples.

Results

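Pdgfra, Cspg4, Lhfpl3, C1ql1, Gpr17, Neu4 and Bcas1, which mark the oligodendrocyte progenitor and the stages that come after it, were measured in sorted cells of mouse medulloblastoma. These 7 genes were chosen by name, with earlier results of these data known. Each was read from its probe set on the array (where a gene had several that named it alone, from the one with the highest mean over the 8 arrays). All 7 were measured, among 22180 genes in all, and no filter on dim genes was applied.

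The Sox2-positive group held 4 arrays and the Sox2-negative group 4 arrays, each of RNA from 1 pool of 3 tumours. All tumours came from mice whose parents are labelled Patched1+/- CD1 and Sox2eGFP B6. Patched1 is a brake on Hedgehog signalling, and its loss gives rise to tumours of the cerebellum. Every mouse had received 3 Gy of ionizing radiation at birth, so both groups share the Patched1 mutation, the reporter and the irradiation, and mice were over 70 days old when they showed signs of a tumour. Cells carrying CD45 or Ter119, markers of blood cells, were removed, and the rest were sorted by eGFP, the fluorescent reporter of the transcription factor gene Sox2. The groups are therefore fractions of dissociated tumour tissue, defined by reporter fluorescence and not by cell type, and pools of equal number may hold the same tumours.

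Oligodendrocyte progenitors divide and migrate under the control of platelet-derived growth factor, which they sense through the receptor encoded by Pdgfra, and they carry the proteoglycan NG2 encoded by Cspg4. As they commit to differentiation they lose these markers, pass through a stage marked by the receptor Gpr17, and then switch on Bcas1 and the genes of myelin. The tumours of this model arise from granule neuron progenitors, a separate lineage.

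Of the 7 markers, 6 were higher in Sox2-positive cells, and for those 6 the values of the 4 Sox2-positive pools all lay above those of the 4 Sox2-negative pools. The difference was largest for Gpr17 (7.73-fold), followed by Lhfpl3 (5.50-fold), Cspg4 (4.38-fold), Pdgfra (4.17-fold), Neu4 (2.78-fold) and Bcas1 (1.98-fold). C1ql1 did not pass the test (1.22-fold). The count of 6 of 7 stands beside 5.96% of all genes called higher, and the count of 6 of 7 without overlap beside 7.63% of all genes with the Sox2-positive values on top. A gene was called at a Benjamini-Hochberg adjusted p under 0.05 in limma, a linear model fitted to all 22180 genes at once, with 4 arrays a group, and folds are Sox2-positive over Sox2-negative. The median log2 difference of the 7 markers was 2.06, and that of all genes was -0.03. In such bulk RNA a larger share of cells of a type and more RNA per cell cannot be told apart. The plot of marker levels shows every pool.

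**Figure D1:**
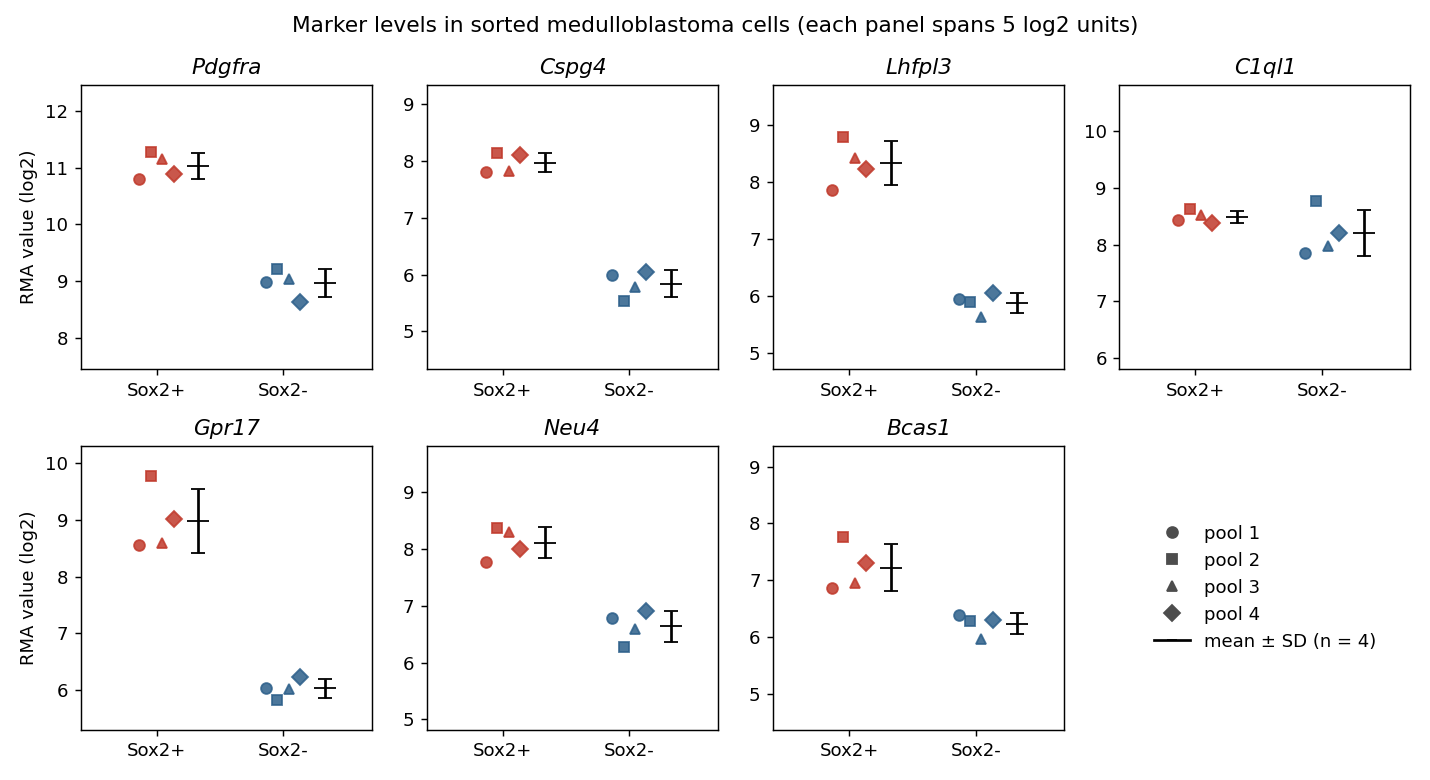
RMA value (log2, vertical axis) of each marker on the 4 Sox2-positive (red, left) and 4 Sox2-negative (blue, right) arrays, with the symbol giving the pool number and the bar the mean ± SD (n = 4). The fractions are apart for every gene but C1ql1, where Sox2-negative pool 2 (8.76) lies above all Sox2-positive pools.

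Whether the sort divided the tumours by Sox2 was read from Sox2 itself. It was at 5.67, 6.07, 6.36 and 5.68 (log2 values of pools 1 to 4) in Sox2-positive cells, against 4.05, 4.60, 4.49 and 4.04 in Sox2-negative cells, a log2 difference of 1.65 (SE 0.17, limma adjusted p = 2.53e-05). The arrays were alike in overall level, with medians over all genes between 5.83 and 5.88. The table has no detection calls, so the levels of 1394 odorant and pheromone receptor genes, silent in most brain cells, served as a guide to dim values, with an upper quartile of 5.80. The Sox2-negative mean of Sox2 (4.30) and Sox2-positive pools 1 and 4 lay below it, so the difference of Sox2 may be understated. No marker had a group mean below that guide, but the Sox2-negative means of Cspg4 (5.84), Lhfpl3 (5.87) and Gpr17 (6.03) lay close to it, so their folds may be understated.

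Among the genes of the dividing progenitor, Pdgfra encodes the receptor for platelet-derived growth factor A, which drives the proliferation of these cells. Its log2 values were 10.79, 11.28, 11.16 and 10.88 in Sox2-positive pools 1 to 4, against 8.98, 9.21, 9.04 and 8.63 in Sox2-negative pools 1 to 4. The lowest Sox2-positive pool stood 1.58 above the highest Sox2-negative pool, more than either fraction's own range. The difference was 2.06 (95% interval 1.77 to 2.35, limma adjusted p = 4.08e-07), the 76th largest increase of all genes. The Sox2-negative mean of Pdgfra, 8.97 ± 0.24 (SD, n = 4), was well above the guide to dim values.

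Cspg4 encodes NG2, a transmembrane chondroitin sulfate proteoglycan that is used to stain progenitors and is also found on pericytes. Its log2 values were 7.82, 8.14, 7.83 and 8.11 in Sox2-positive cells, against 6.0, 5.54, 5.78 and 6.05 in Sox2-negative cells. The groups were 1.77 apart at their nearest values, and both fractions were narrow beside that gap. The log2 difference was 2.13 (95% interval 1.86 to 2.40, limma adjusted p = 1.47e-07).

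Lhfpl3 encodes a membrane protein of the LHFPL family that is enriched in progenitors. It was at 7.87, 8.80, 8.42 and 8.23 in Sox2-positive cells and at 5.94, 5.88, 5.62 and 6.05 in Sox2-negative cells. Sox2-positive pool 2 was the highest and pool 1 the lowest of their fraction, and the groups were 1.83 apart at their nearest values. The log2 difference was 2.46 (95% interval 2.11 to 2.81, limma adjusted p = 4.27e-07). The intervals of Pdgfra, Cspg4 and Lhfpl3 overlapped one another.

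RefSeq's promoter table (build GRCm38.p6) held 4 of the 7 genes, Pdgfra, Cspg4, Lhfpl3 and Neu4; the promoters of C1ql1, Gpr17 and Bcas1 were not used here. The 250 bases before the annotated start of the 3 progenitor markers that rose by similar amounts are shown to let their sequences be compared. They lie at chr5:75152001-75152250 for Pdgfra, chr9:56864854-56865103 for Cspg4 and chr5:22745804-22746053 for Lhfpl3, all on the plus strand, and are written 5′ to 3′ with capitals marking any match to the motifs searched.
Pdgfra: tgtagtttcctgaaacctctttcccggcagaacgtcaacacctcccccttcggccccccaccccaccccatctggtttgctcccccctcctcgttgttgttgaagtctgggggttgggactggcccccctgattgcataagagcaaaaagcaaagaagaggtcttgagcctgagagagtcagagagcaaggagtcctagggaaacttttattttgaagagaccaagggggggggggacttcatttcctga
Cspg4: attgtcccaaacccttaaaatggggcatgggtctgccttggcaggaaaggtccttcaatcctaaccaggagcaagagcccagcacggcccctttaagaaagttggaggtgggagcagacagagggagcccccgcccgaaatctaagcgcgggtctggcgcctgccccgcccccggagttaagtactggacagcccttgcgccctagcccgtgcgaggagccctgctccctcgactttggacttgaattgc
Lhfpl3: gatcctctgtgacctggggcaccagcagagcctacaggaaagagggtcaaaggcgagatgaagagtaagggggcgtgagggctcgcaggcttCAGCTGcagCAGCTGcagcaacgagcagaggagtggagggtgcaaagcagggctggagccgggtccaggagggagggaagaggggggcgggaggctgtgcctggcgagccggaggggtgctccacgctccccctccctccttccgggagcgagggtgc
The motifs were ACAAAG and ACAATG, cores bound by SOX proteins, and the E-boxes CAGCTG and CATATG, of the kind that basic helix-loop-helix factors such as Olig2 bind. Both strands were read, each E-box being its own reverse complement. In the Lhfpl3 window CAGCTG stood at 2 places, starting 158 and 149 bases before the gene's start. None of the motifs was in the windows of Pdgfra, Cspg4 or Neu4. Among the 32851 promoter windows of the same length in the table, CAGCTG was in 13%, CATATG in 3.46%, ACAAAG in 16.5% and ACAATG in 10.7%. The windows held 54.4% G and C for Pdgfra, 60.4% for Cspg4 and 67.2% for Lhfpl3, against 53.2% over all windows. A match describes these letters and is not a measured binding site.

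C1ql1 encodes a secreted protein with a C1q-like domain. In mice it is made by progenitors and also by neurons of the inferior olive, which project to the cerebellum. Its log2 values were 8.44, 8.62, 8.52 and 8.38 in Sox2-positive cells, against 7.86, 8.76, 7.97 and 8.21 in Sox2-negative cells. The Sox2-positive pools lay close together (SD 0.10) and the Sox2-negative pools were spread more widely (SD 0.40), with pool 2 above every Sox2-positive value. The log2 difference was 0.29 (95% interval -0.05 to 0.64, limma adjusted p = 0.346), which leaves room for a difference of the size of the interval's upper end. Without Sox2-negative pool 2 the difference was 0.48 and passed the test (limma adjusted p = 0.0153), and then all 7 markers were called higher. Without Sox2-negative pool 1 it was 0.18 (adjusted p = 0.646).

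Gpr17 encodes a G protein-coupled receptor that appears as progenitors commit to differentiation and is lost again in myelinating cells. Its log2 values were 8.56, 9.78, 8.60 and 9.01 in Sox2-positive cells, against 6.04, 5.84, 6.02 and 6.24 in Sox2-negative cells. Sox2-positive pool 2 stood 0.79 above its fraction's mean, the largest deviation of any marker on any array, and even the lowest Sox2-positive pool was 2.32 above the highest Sox2-negative one. The log2 difference was 2.95 (95% interval 2.49 to 3.41, limma adjusted p = 1.04e-06), the 26th largest increase of all genes. Gpr17 overlaps the gene Lims2 in the annotation of a second probe set, which names both genes and was not used for the test.

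Neu4 encodes a sialidase, an enzyme that removes sialic acid from glycoproteins and glycolipids. It was at 7.77, 8.37, 8.29 and 8.0 in Sox2-positive cells and at 6.78, 6.27, 6.59 and 6.90 in Sox2-negative cells. The nearest values of the fractions were 0.87 apart. The log2 difference was 1.47 (95% interval 1.15 to 1.80, limma adjusted p = 2.77e-05).

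Bcas1 encodes a protein that marks young oligodendrocytes at the onset of myelination. It was at 6.87, 7.77, 6.95 and 7.30 in Sox2-positive cells, against 6.39, 6.28, 5.97 and 6.30 in Sox2-negative cells. The fractions did not overlap, but their nearest values were 0.48 apart, the smallest gap among the 6 markers that passed. The log2 difference was 0.99 (95% interval 0.62 to 1.35, limma adjusted p = 0.00191). A dimmer probe set of Bcas1 averaged 5.99 ± 0.18 in Sox2-positive cells, against 5.83 ± 0.15 in Sox2-negative cells (SD, n = 4 each), a difference of 0.16 (95% interval -0.09 to 0.42). With the mean of both probe sets the difference of Bcas1 was 0.57.

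The 95% intervals of the differences were apart for 14 of the 21 pairs of markers, which is given as a description, since differences on separate probe sets depend on how each set responds. Gpr17 had an interval above those of all the others except Lhfpl3. Neu4 overlapped Bcas1 and, at its upper end, Pdgfra, and Bcas1 also overlapped C1ql1. Gpr17 and Bcas1, both markers of later stages, thus had the largest and the smallest of the differences that passed.

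**Figure D2:**
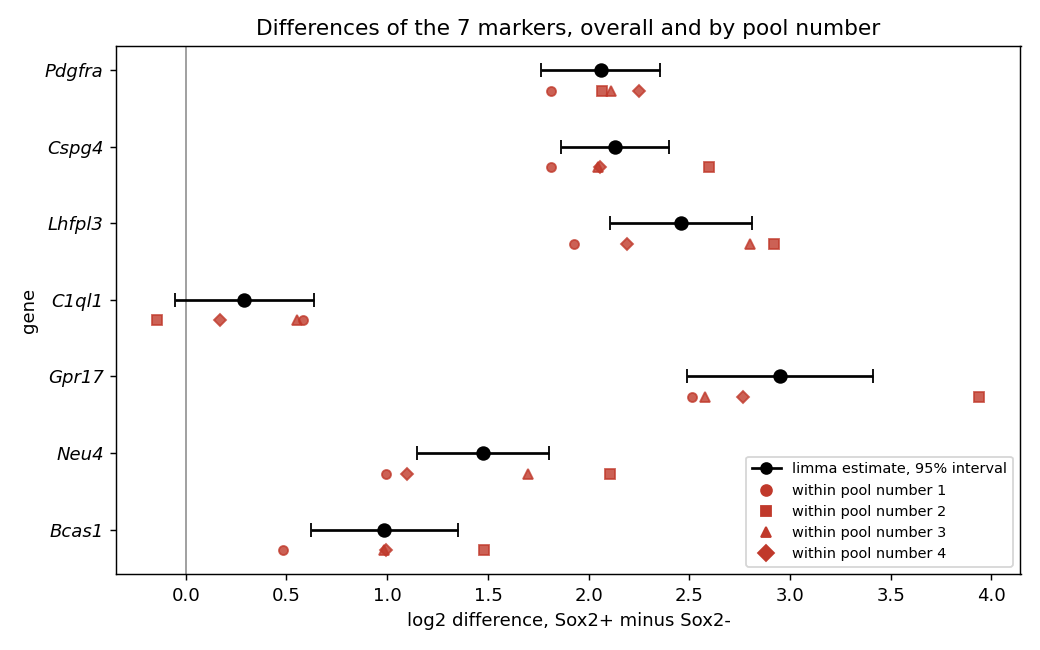
Log2 difference (horizontal axis, Sox2-positive minus Sox2-negative) of each marker (rows), as the limma estimate with its 95% interval (black, 4 arrays a group) and as the difference between the arrays of each pool number (red symbols). All differences are positive except that of C1ql1 in number 2 (-0.14).

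Differences taken within a pool number were positive in 4 of 4 numbers for 6 markers and in 3 of 4 for C1ql1. They ran between 1.81 and 2.25 for Pdgfra, between 1.82 and 2.60 for Cspg4 and between 1.93 and 2.92 for Lhfpl3. They ran between 2.51 and 3.94 for Gpr17, between 1.0 and 2.11 for Neu4 and between 0.48 and 1.48 for Bcas1. Pdgfra thus varied least from number to number and Gpr17 most. Number 1 gave the smallest difference for each of the 6 markers that passed, and number 2 gave the largest for all of these but Pdgfra.

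Within the Sox2-positive fraction the pools kept much the same order from marker to marker. Pool 2 was the highest of the 4 for all 7 markers, and pool 1 was the lowest for 6 of them, all but C1ql1. The mean deviation of the 7 markers from their fraction's mean was 0.37 in pool 2 and -0.29 in pool 1. In the Sox2-negative fraction there was no such order, and the mean deviations lay between -0.11 and 0.09. Sox2 itself was highest in Sox2-positive pool 3, not pool 2.

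**Figure D3:**
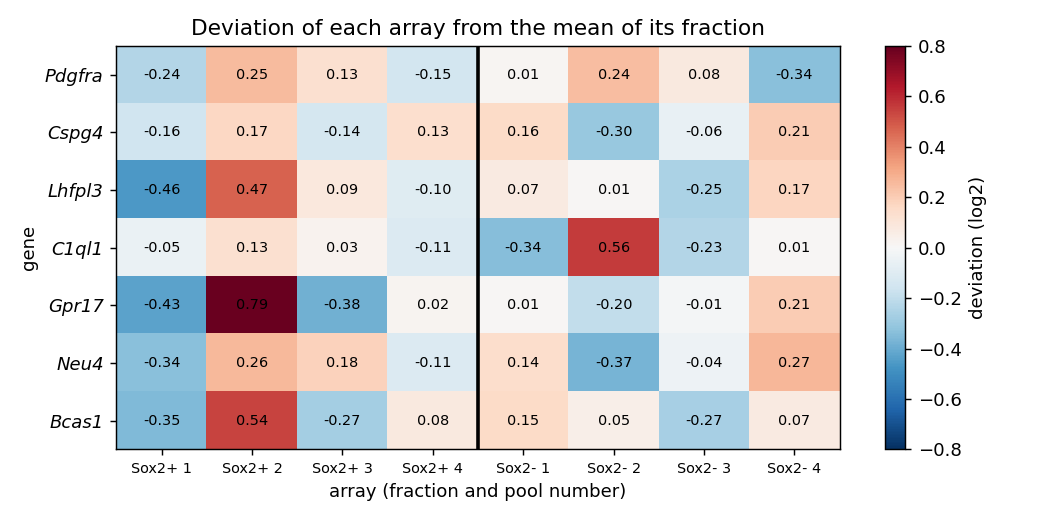
Deviation (log2, colour and printed value) of each marker (rows) on each array (columns, Sox2-positive left of the line and Sox2-negative right of it) from the mean of its fraction. The column of Sox2-positive pool 2 is positive for all 7 markers, and that of Sox2-positive pool 1 is negative for all 7.

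Other genes of the lineage were read by stage, and no list was tested against another. These lists too were chosen with earlier results of these data known. Of 19 other progenitor genes measured, 16 rose and 0 fell, against 5.96% of all genes called higher, with a median log2 difference of 2.44, and none of the 19 had both group means below the guide to dim values. Ptprz1, a receptor phosphatase, averaged 10.59 ± 0.29 in Sox2-positive cells, against 5.83 ± 0.22 in Sox2-negative cells (SD, n = 4 each). Tnr, a matrix glycoprotein, had a log2 difference of 4.02 and Olig1, a transcription factor of the lineage, one of 4.01 (limma adjusted p = 2.10e-08 and 1.51e-09). The Sox2-negative mean of Olig1 (5.74) lay below the guide, and those of Ptprz1 (5.83) and Tnr (5.82) lay close to it. The differences of all 3 may therefore be understated. Susd5 (0.30), Sapcd2 (0.09) and Kcnk1 (-0.40) did not pass, and with the pool number as a block Kcnk1 fell (adjusted p = 0.0273).

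Of 13 genes of committed and premyelinating cells, the stage of Gpr17 and Bcas1, 10 rose and 0 fell, against 5.96% of all genes called higher, with a median of 0.98, and 3 of the 13 had both means below the guide. Sirt2, a deacetylase of myelinating glia, had a log2 difference of 1.81, Ugt8a, an enzyme of myelin lipid synthesis, one of 1.72, and Nfasc, an adhesion molecule of the axon-glia contact, one of 1.30 (limma adjusted p = 4.37e-05, 1.0e-05 and 0.000762). Rras2, Cnksr3 and Kif19a had differences of -0.03, 0.02 and 0.16 and did not pass.

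Of 15 genes of myelinating cells, 4 rose and 0 fell, against 5.96% of all genes called higher, and the median was 0.20. Both group means of 7 of the 15 genes lay below the guide to dim values, where a difference could be missed. The 4 that rose were Cnp (1.71), Cldn11 (1.60), Fa2h (1.37) and Mbp (0.60). The Sox2-negative mean of Cnp (5.26) lay below the guide, so its difference may be understated. Mbp, the basic protein of myelin, is named besides the 3 largest because the count is small. The calls of Cldn11 and Mbp ended without Sox2-positive pool 4 (adjusted p = 0.0523 and 0.0581) and when all probe sets were tested (0.0921 and 0.0917), and that of Mbp also without Sox2-negative pool 1 (0.0674). Cldn11, a tight junction protein of myelin, was at 7.44, 9.71, 7.82 and 9.06 in Sox2-positive cells, against 6.81, 6.65, 6.94 and 7.22 in Sox2-negative cells, so that pools 2 and 4 stood well above pools 1 and 3.

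**Figure D4:**
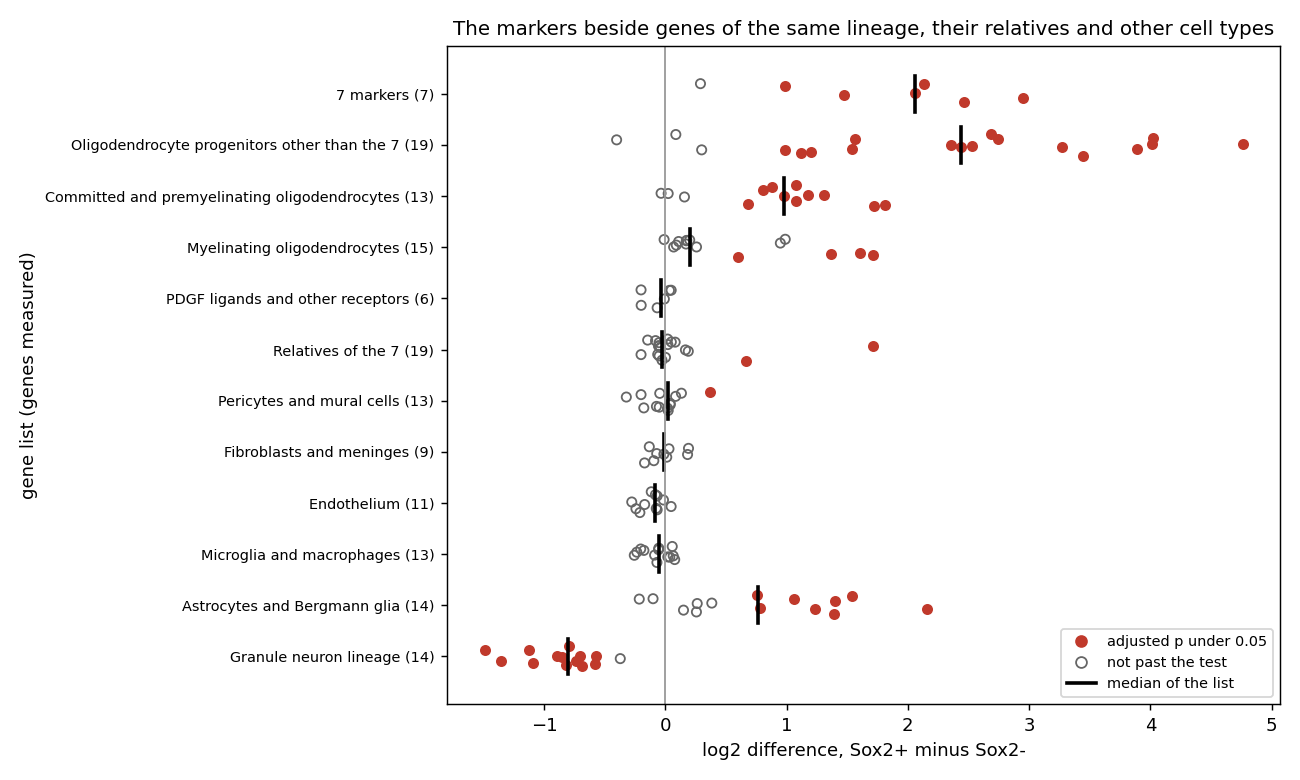
Log2 difference (horizontal axis, Sox2-positive minus Sox2-negative) of each gene (points, filled where the adjusted p is under 0.05) of the 7 markers and 11 gene lists (rows, genes measured in parentheses), with the median as a black bar. The median is 2.06 for the markers, 2.44 for other progenitor genes, 0.98 for committed cells and 0.20 for myelinating cells.

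The mean level of these lists on each array showed the same pools apart. The committed list was at 6.83, 7.62, 7.01 and 7.07 on Sox2-positive arrays 1 to 4, against 6.19, 6.22, 6.32 and 6.22 on Sox2-negative arrays. The myelinating list was at 5.91, 6.65, 6.14 and 6.20 in Sox2-positive cells, against 5.69, 5.62, 5.61 and 5.72 in Sox2-negative cells. In both lists Sox2-positive pool 2 was the highest and pool 1 the lowest of the 4 Sox2-positive arrays, as for the markers. Without Sox2-positive pool 2 the same 6 markers were called, and Gpr17 kept a log2 difference of 2.69.

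**Figure D5:**
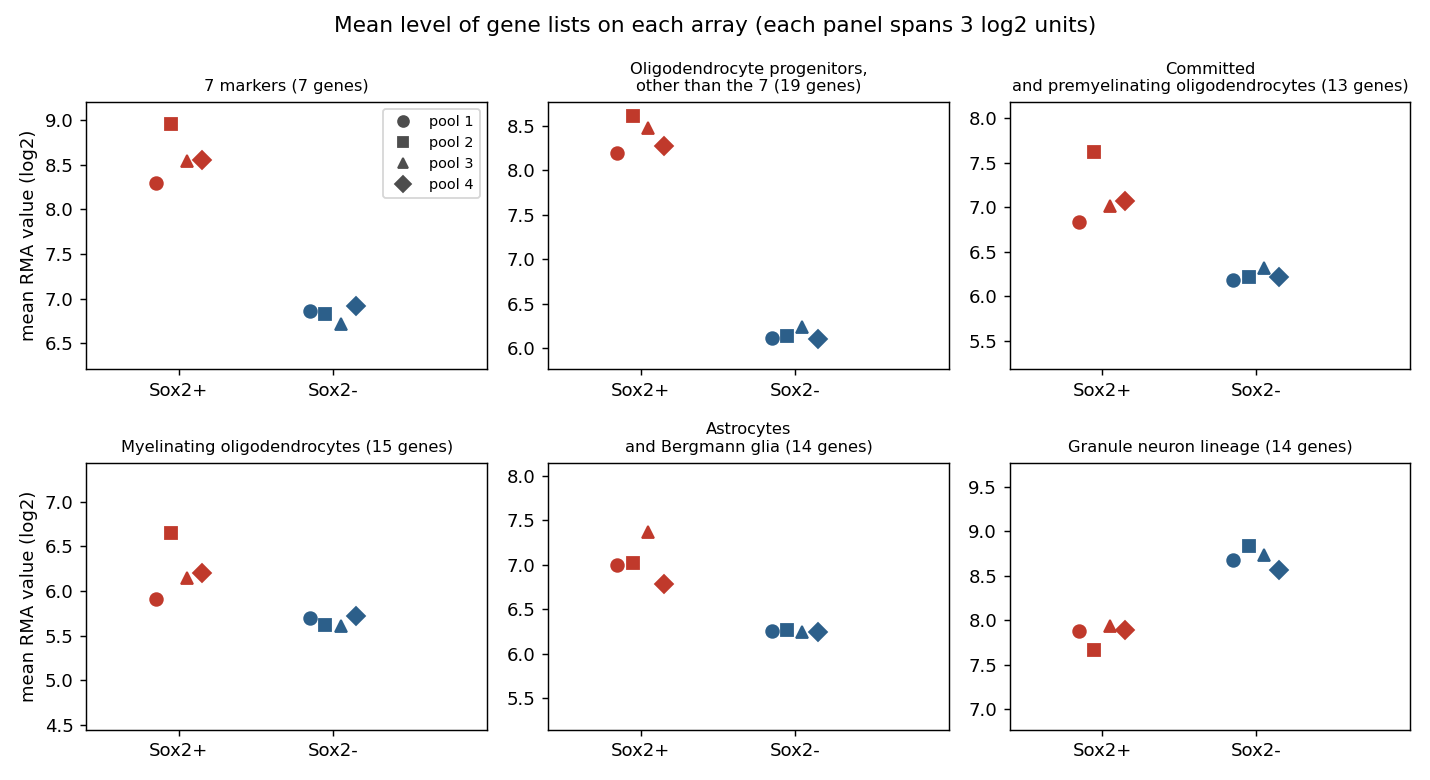
Mean RMA value (log2, vertical axis) over the genes of each list on each array (Sox2-positive red, left; Sox2-negative blue, right; the symbol gives the pool number). Sox2-positive pool 2 is the highest for the markers (8.97), other progenitor genes (8.61), committed (7.62) and myelinating cells (6.65), while for astrocytes and Bergmann glia it is pool 3 (7.37).

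The ligands of the receptor encoded by Pdgfra showed no change that passed the test. Of 6 genes for platelet-derived growth factors and their other receptors, 0 were called by limma, also at an unadjusted p under 0.05. That count stands beside 5.96% of all genes called higher and 2.52% called lower, and is near those shares. The differences of the 6 lay between -0.20 and 0.05, and both group means of 3 of the 6 lay below the guide to dim values. Pdgfa, the ligand that progenitors respond to, averaged 7.12 ± 0.19 in Sox2-positive cells, against 7.31 ± 0.07 in Sox2-negative cells (SD, n = 4 each; log2 difference -0.20, 95% interval -0.42 to 0.02). Pdgfrb, the paralogous receptor of pericytes, had a log2 difference of -0.20 (95% interval -0.47 to 0.07).

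Of 19 relatives of the markers measured, 2 rose and 0 fell, against 5.96% of all genes called higher, and the median was -0.03. Both group means of 12 of the 19 lay below the guide to dim values. C1ql2, a paralog of C1ql1, was at 7.93, 8.06, 8.34 and 7.93 in Sox2-positive cells, against 6.53, 6.42, 6.44 and 6.04 in Sox2-negative cells. Its pools did not overlap, and its difference was 1.71 (95% interval 1.44 to 1.98, limma adjusted p = 1.14e-06), beside 0.29 for C1ql1; the difference between the paralogs was not tested. C1ql4 had a difference of -0.05. Kit, a receptor tyrosine kinase of the same class as Pdgfra, averaged 7.16 ± 0.20 in Sox2-positive cells, against 6.50 ± 0.11 in Sox2-negative cells (SD, n = 4 each; difference 0.66, limma adjusted p = 0.0014).

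The other sialidase genes Neu1, Neu2 and Neu3 had differences of 0.05, -0.06 and -0.05, with Neu4 at 1.47. The relatives of Lhfpl3, which were Lhfp, Lhfpl1, Lhfpl2, Lhfpl4 and Lhfpl5, lay between -0.08 and 0.19, and none of these 5 passed. The purinergic and leukotriene receptor genes related to Gpr17, which were Cysltr1, Cysltr2, P2ry12, P2ry13 and P2ry14, lay between -0.15 and 0.08, and none of these 5 passed either.

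Pdgfra and Cspg4 are also expressed outside the oligodendrocyte lineage, in fibroblasts and pericytes. Of 13 genes of pericytes and mural cells, 1 rose and 0 fell, near the 5.96% of all genes called higher, the median was 0.02, and the mean of the list ran between 5.75 and 5.85 on Sox2-positive and between 5.74 and 5.89 on Sox2-negative arrays. The gene that rose was Rgs5, a regulator of G protein signalling in pericytes (log2 difference 0.37, limma adjusted p = 0.0174), whose Sox2-negative mean (5.74) lay below the guide. That call was lost without Sox2-positive pool 4 (0.0571) and when its probe sets were averaged (0.252). Both group means of 6 of the 13 genes were below the guide to dim values, and the brightest, Acta2, had a difference of 0.04. Of 9 genes of fibroblasts and meninges, 0 were called by limma, also at an unadjusted p under 0.05. That count stands beside 5.96% of all genes called higher and 2.52% called lower, and is near those shares. The mean of the list ran between 5.60 and 5.68 on Sox2-positive and between 5.58 and 5.67 on Sox2-negative arrays. Islr, the brightest, had a difference of 0.18. Both group means of 4 of these 9 genes lay below the guide.

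Of 11 endothelial and 13 microglial genes, 0 were called in limma's test (1 and 3 at an unadjusted p under 0.05), with medians of -0.08 and -0.06. These counts stand beside 5.96% of all genes called higher and 2.52% called lower. Both group means of 9 of the 11 endothelial and 8 of the 13 microglial genes lay below the guide, so a difference in them could be missed. The largest differences were -0.28 for Tek, an endothelial receptor, and -0.26 for Ctss, a protease of microglia. The list of microglial genes averaged between 5.39 and 5.49 on Sox2-positive and between 5.39 and 5.58 on Sox2-negative arrays. Cells carrying CD45 had been removed from both fractions, which limits what the microglial genes can show.

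Genes of astrocytes and Bergmann glia were in part higher too. Of 14 measured, 8 rose and 0 fell, against 5.96% of all genes called higher, the median was 0.77, and the mean of the list ran between 6.79 and 7.37 on Sox2-positive and between 6.24 and 6.26 on Sox2-negative arrays. Slc1a3, a glutamate transporter that progenitors also express, had a difference of 2.16, Hepacam one of 1.54 and Slc4a4, a bicarbonate transporter, one of 1.40. Aqp4 (1.39), S100b (1.24), Aldoc (1.06), Gfap (0.78) and Gja1 (0.75) passed as well. The 6 that did not pass were Fgfr3 (0.38), Gjb6 (0.26), Aldh1l1 (0.26), Slc1a2 (0.15), Sox9 (-0.10) and Gdf10 (-0.21). With the pool number as a block Fgfr3 passed (limma adjusted p = 0.0324). The genes in these 3 sentences were named after their values were seen. Both group means of 2 of the 14 genes were below the guide to dim values. Among the genes that passed, the Sox2-negative means of S100b (5.29) and Gja1 (5.74) lay below the guide, so their differences may be understated. Gja1 passed narrowly (limma adjusted p = 0.0469). The part of astrocytes in the levels of the markers was not tested.

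Genes of the granule neuron lineage, from which the tumour arises, moved the other way. Of 14 measured, 13 fell and 0 rose, against 2.52% of all genes called lower, with a median of -0.80. The axonal adhesion gene Cntn2 fell by 1.49, Nhlh1, a transcription factor of young neurons, fell by 1.35 and its paralog Nhlh2 fell by 1.13. The mean of the list ran between 7.67 and 7.93 on Sox2-positive and between 8.56 and 8.84 on Sox2-negative arrays, and its lowest value was in Sox2-positive pool 2, where the markers were highest. The part of the makeup of the fractions in the levels of the markers was not tested.

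The genes whose values over the 8 arrays lay nearest to the mean profile of the 6 markers that passed were Slc22a23, Rhoj, Susd4, Rin2 and Ncam2. Nearness was the root mean square distance between values centred on each gene's mean, and was 0.14 to 0.17 log2 units for these 5. Ncam2, a neural cell adhesion molecule, was also the nearest to Pdgfra (0.14), followed by Lix1l. Pcdh15, a protocadherin of progenitors from the list above, was the nearest to Lhfpl3 (0.16). Lrp1, an endocytic receptor, was the nearest to Cspg4 (0.18), Arsb, a lysosomal sulfatase, to Gpr17 (0.30), B3gat2 to Neu4 (0.12) and Sh3d19 to Bcas1 (0.10). The distance between Gpr17 and its nearest gene was the longest of the 6.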

How the data were processed

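The deposited table holds a log2 value for every probe set on every array, computed by the authors with RMA in Affymetrix Expression Console (version 1.2.0.20), per the submitters' processing notes. RMA corrects the background, normalizes the arrays and summarises probes, which compresses fold changes of dim genes and removes any difference in total RNA. That the scale is log2 was judged from the range of the values (2.51 to 13.6). The build behind the probe sets is not given in the sources used here.

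Of 41345 probe sets, 23521 had 1 symbol in the platform annotation, 1814 several and 16010 none. The brightest single-symbol probe set stood for each of 22180 genes. limma 3.58.1 (R 4.3.3; lmFit, eBayes, group as the only term) gave two-sided p-values, adjusted over all genes by Benjamini-Hochberg, and the procedure was tested on simulated data. The number of arrays limits the precision. Alternatives were the pool number as a block, quantile normalization, the mean of probe sets, dimmer genes left out, array weights, a variance trend, all probe sets tested, and each array left out.

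The markers and the 11 lists were chosen with earlier results of these data known, and the lists were written from textbook knowledge. From each list up to 3 called genes with the largest difference were named, or the largest where none was called, every relative could be named, and the 5 genes nearest to the markers' mean and 2 nearest to each were found. The brightest gene of a list of another cell type could be named too. Susd5, Sapcd2, Kcnk1, Rras2, Cnksr3, Kif19a, Mbp, Pdgfa, Kcnj8 and the further astrocyte genes were named outside this rule, with their values seen. Of 147 listed genes 142 were measured, and the others were not analysed here.

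Deviations from the fraction means correlated at 0.164, 0.114, 0.177 and 0.241 between arrays of equal number (at most 0.161 between different numbers). The value for number 2 (0.114) lay below that maximum, and the value for number 1 (0.164) was barely above it. These values do not settle whether equal numbers pair the samples, which the labels do not state. The main fit took no pairs, and equal numbers were taken as pairs only in the alternative with the pool number as a block. The p-values measure the spread between pools of 3 tumours.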

Additional observations from a re-analysis of the deposited data

Results flagged for a closer look

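A second probe set names both Lims2 and Gpr17 and entered no comparison. Its log2 values were 7.11, 7.57, 7.48 and 7.21 in Sox2-positive cells, against 6.47, 5.71, 6.36 and 6.03 in Sox2-negative cells. All Sox2-positive pools lay above all Sox2-negative ones, with a difference of 1.2 (95% interval 0.81 to 1.59, limma adjusted p = 0.0049 over all probe sets), which cannot be assigned to either gene.

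No marker had a pool far from the other 3 of its fraction by Dixon's ratio, the gap to the nearest pool over the fraction's range, set against its 95% critical value. Of 132 groups of 4 values, those of the markers, Sox2 and the genes taken by the naming rule, 8 exceeded it, and chance gives about 1 in 20. All 8 were in Sox2-positive cells. Pool 2 was far above the others for Fa2h (ratio 0.858), Foxc1 (0.882), Lhfpl2 (0.886) and Susd4 (0.937). Pool 1 was far below for Pdgfrb (0.953), Flt3 (0.923) and Rhoj (0.897), and far above for P2ry13 (0.847). Fa2h, an enzyme of myelin lipid synthesis, was at 8.41 in pool 2 with the next pool at 7.49, and Rhoj was at 8.05 in pool 1 with the next at 8.68.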

How the results depend on the processing

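The 6 markers called higher kept their call and direction in all 15 alternatives. C1ql1 kept its side of the threshold in 14 and passed without Sox2-negative pool 2 (log2 difference 0.48, adjusted p = 0.0153). Leaving out an array gave 6 to 7 markers higher. Log2 differences ran from 1.95 to 2.14 for Pdgfra, 2.03 to 2.20 for Cspg4, 2.30 to 2.61 for Lhfpl3, 2.69 to 3.09 for Gpr17, 1.35 to 1.59 for Neu4 and 0.57 to 1.10 for Bcas1, the lowest of Bcas1 with the mean of its probe sets. With the replicate block, which takes equal pool numbers as pairs, 1572 genes were higher and 768 lower, and it changed no marker's call. With the block 1 progenitor gene (Kcnk1) and 1 mural gene (Kcnj8, adjusted p = 0.0403) were called lower. Genes called lower numbered 558, against 847 with quantile normalization and 309 to 591 with an array left out (309 without Sox2-positive pool 2, 361 without Sox2-positive pool 4, 357 without Sox2-negative pool 1). With all probe sets tested, 361 were called lower, which is a count of probe sets and not of genes. Genes called higher numbered 1321, against 1282 with quantile normalization and 995 to 1334 with an array left out. The myelinating count of 4 became 2 with all probe sets tested and 2 to 6 with an array left out (2 without Sox2-positive pool 4, and without Sox2-negative pool 1 Mbp was not called). The mural count of 1 became 0 with the mean of probe sets and 0 to 1 with an array left out (0 without Sox2-positive pool 4). The causes were not tested. In all, 379 of 390 recomputed counts stayed within 1.5 times, but many of these were 0 in the main fit and 0 again. Counts within that bound also varied over the alternatives. The granule lineage count of 13 lower ran from 9 to 14. The committed count of 10 higher ran from 8 to 10, and the astrocyte count of 8 higher from 7 to 9. Cspg4, Lhfpl3 and Gpr17 lay near the guide to dim values in Sox2-negative cells, which limits how well their folds are known.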
